A study of Oryza sativa with 8 samples.

Results

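The difference between the salt responses of rice roots and rice leaves was measured gene by gene as (root salt minus root control) minus (leaf salt minus leaf control), on log2(FPKM + 1). FPKM is the number of sequenced fragments of a gene, divided by transcript length and by the mapped fragments of the library. Of 23776 tested genes, 7805 (32.8%) had a called difference, meaning a Benjamini-Hochberg adjusted p under 0.05 in limma over all tested genes. Of these, 2768 were placed in 6 classes in which the change was at least 2-fold in a single tissue and bounded in the other, or at least 2-fold in opposite directions. The plants were 2-week-old seedlings of Oryza sativa cultivar Nipponbare in hydroponic culture. Control plants stayed in the normal medium, and salt plants received 150 mmol NaCl (an amount that the labels give without a volume) for 24 hours. Each of the 4 groups, control and salt of leaf and of root, has 2 libraries, described in the labels as biological replicates with no statement of how many plants each holds. The tissue fields of the labels read seedling and shoot, so the tissues were taken from the sample titles.

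Salt reaches the root first. The medium around the root becomes harder to draw water from, and sodium that enters the root and is not pumped out or stored travels with the transpiration stream to the leaf, where it accumulates over time. Roots and leaves therefore share part of the response to water deficit and to abscisic acid, while ion uptake, exclusion and root growth are tasks of the root and photosynthesis is a task of the leaf. An interaction of tissue and treatment asks directly whether a gene responds differently in the 2 organs, which a gene that passes a threshold in one organ and misses it in the other does not show.

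Gene identifiers are of the LOC_Os form, in which the digits after Os give the chromosome. No name or function is given for any of them in the files, and 0 of 55797 identifiers were found in the reference gene table, so genes are described by identifier, position and values. The genome build is not given in the sources used here. Depth is not stated either, but the deposited confidence bounds imply 9060000 to 10700000 fragments per library, and the implied fragments behind a value are given below where they are few. Tissue identity could not be checked against marker genes, because no gene names could be looked up. A set of 189 genes was chosen for having 100 FPKM or more in leaf controls while averaging below 2% of that level in root, so that a low root level was fixed by the choice. Their median level was 0.265% to 1.20% of leaf controls in the 4 root libraries, highest in root control replicate 1. Over 79 genes chosen the same way for root, the median level in the 4 leaf libraries was 0.258% to 0.357% of root controls. Of the 189 leaf genes, 28 had a called difference of salt response and 13 were in the 6 classes, 8 of them among the genes that fell in leaf. Of the 79 root genes, 45 had a called difference and 28 were in the classes, 18 of them among the genes that fell in root. Of all 23776 tested genes, 32.8% had a called difference and 2768 were in the classes. The median level of the root genes in root salt was 63.9% and 66.5% of root control, and that of the leaf genes in leaf salt was 83.9% and 83.4% of leaf control. Both sets were chosen for a high level in controls and a low level in the other tissue. Falls with salt and a bounded change in the other tissue are therefore favoured by the choice. Called differences and class membership were nonetheless less frequent among the leaf genes than among all tested genes, and more frequent among the root genes. The part of tissue makeup and of material from the other tissue in the results was not tested. In bulk tissue, fewer cells of a type and less RNA per cell cannot be told apart.

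The called differences were more positive in root for 5496 genes (23.1% of tested genes) and more positive in leaf for 2309 (9.71%). This split depended on how the libraries were scaled. The median difference over all tested genes was 0.188 on the log2 scale for FPKM as deposited, 0.0281 after the 75th percentile was set equal in all libraries and -0.0543 after quantile normalization, and the last of these gave 3619 genes more positive in root and 3852 more positive in leaf. Leaving out any single library lowered the number of called genes in both directions. At the edge of the call, the last gene inside had an adjusted p of 0.049998 with a difference of 0.60 in size, and the first outside had 0.050005 and 0.64. The separate salt contrasts behind the difference called 33.8% of tested genes in leaf and 43.4% in root.

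Most of the 7805 genes lay outside the 6 classes. A total of 3356 genes (43% of the 7805) were called in 1 tissue but changed by less than 2-fold there or had an interval past 2-fold in the other, 2096 of them in root and 1260 in leaf. A further 866 were called in opposite directions with less than a 2-fold change in 1 or both tissues. Another 539 were called in the same direction in both, 323 higher and 216 lower, with the larger change in root for 268 and in leaf for 271. The remaining 276 were called in neither tissue taken alone. The 2768 genes of the 6 classes made up 35.5%.

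Genes that changed in a single tissue numbered 2647. They had a called change of at least 2-fold in that tissue, a called difference between tissues, and a 95% limma interval within -1 and 1 (log2) in the other tissue. In this sense 1135 genes (4.77% of tested genes) rose in root, 396 (1.67%) fell in root, 475 (2%) rose in leaf and 641 (2.7%) fell in leaf. The excess of root rises over root falls was smaller under both other scalings of the libraries. After 75th percentile scaling the same 4 classes held 789, 598, 540 and 587 genes, and after quantile normalization 715, 687, 577 and 500. Of the genes placed on the deposited scale, 650 of 1135, 386 of 396, 436 of 475 and 451 of 641 kept their class under both scalings. Leaving out each library in turn gave 825 to 1252, 278 to 528, 346 to 428 and 499 to 620 genes. Membership was less stable than these counts: 484, 161, 221 and 299 genes kept their class whichever library was left out, and 329, 106, 168 and 166 kept it at pseudocounts of both 0.1 and 5.

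**Figure D1:**
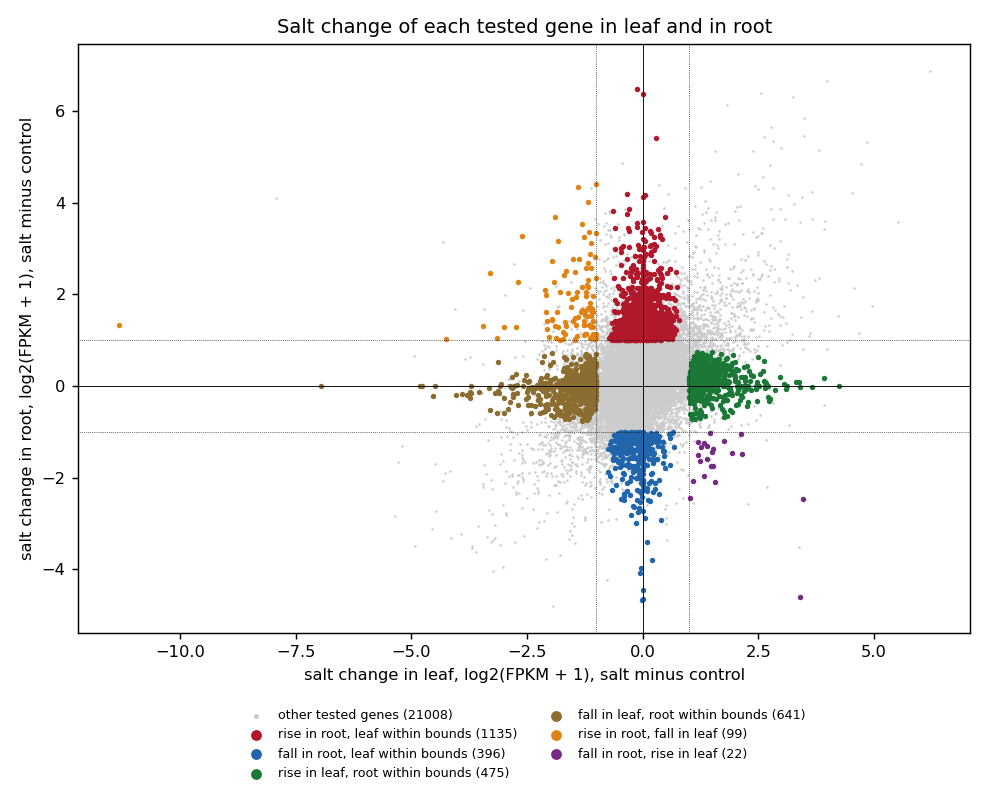
Salt change in leaf (x axis) against salt change in root (y axis), salt minus control on log2(FPKM + 1), for 23776 tested genes; colours mark the 6 classes, grey points the other genes, and dotted lines a 2-fold change. The 4 single-tissue classes form a cross along the axes, and the opposite classes fill the upper left (99 genes) and lower right (22 genes).

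A response in a single organ can mean that the other organ holds little or none of the transcript. Among the 2647 genes, 915 (34.6%) were under 1 FPKM in all 4 libraries of the other tissue, where log2(FPKM + 1) stays below 1 and the interval can hardly leave the bounds. This applied to 364 genes that rose in root, 163 that fell in root, 158 that rose in leaf and 230 that fell in leaf. Of all tested genes, 10.2% were under 1 FPKM in all 4 leaf libraries and 7.36% in all 4 root libraries. The other tissue had a group mean of 1 FPKM or more for 1694 genes (64%), namely 746, 231, 313 and 404 in the same order. Another 38 genes lay between these limits. A bounded change is not an absent one: 520 of the 2647 genes (19.6%) were also called in the other tissue, with a smaller change.

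Those smaller changes ran along with or against the main one. Of the genes that rose in root, 188 were called in leaf, 89 higher and 99 lower. Of those that fell in root, 71 were called in leaf, 59 lower and 12 higher. Of those that rose in leaf, 118 were called in root, 89 higher and 29 lower, and of those that fell in leaf 143 were called, 93 lower and 50 higher. Requiring the other tissue to stay within 1.5-fold instead of 2-fold left 511, 191, 210 and 324 genes, while asking only that it was not called, with no bound on its interval, gave 1108, 362, 397 and 564, which include genes outside the reported classes.

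**Figure D2:**
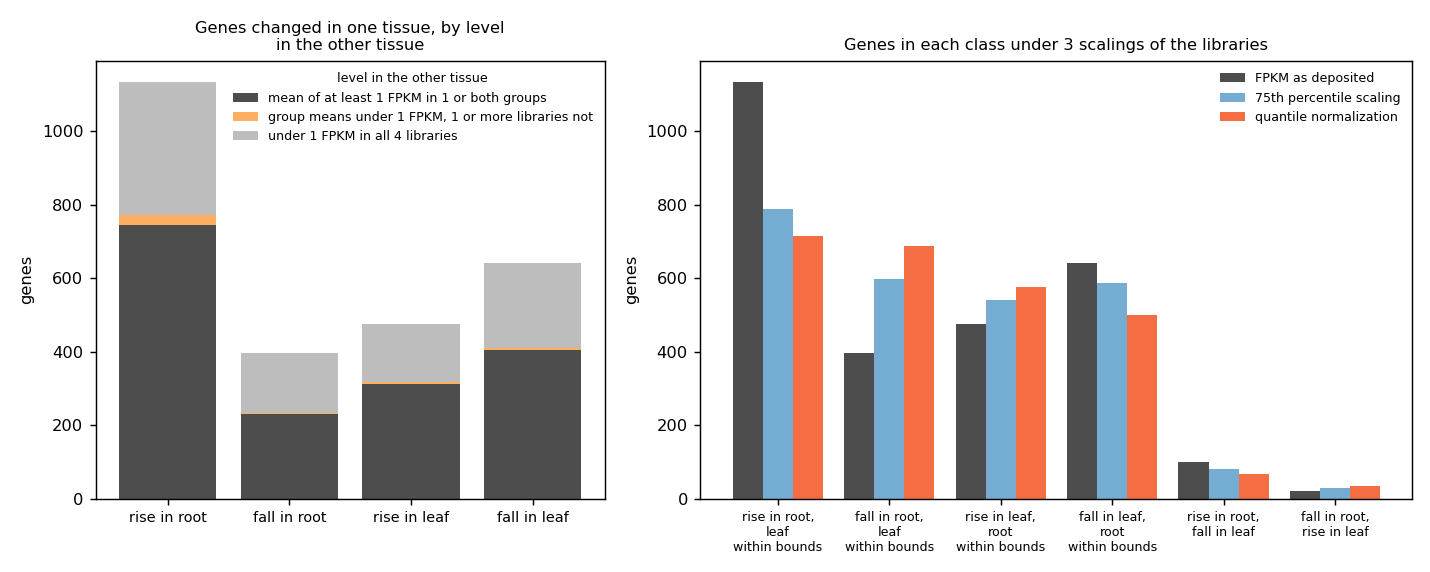
Left, genes that changed in a single tissue, stacked by their level in the other tissue; right, genes in each of the 6 classes for FPKM as deposited and for 2 other scalings (y axes, number of genes). Genes that rose in root fell from 1135 to 789 and 715 across the scalings, while those that fell in root went from 396 to 598 and 687.

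Genes that rose in root while leaf stayed within bounds had a median root change of 1.35 (interquartile range 1.15 to 1.67, log2) and a median leaf change of 0 (-0.23 to 0.17). At least 4-fold rises were seen for 151 of the 1135 and at least 8-fold rises for 37. As a group they held 1.89% and 1.96% of the summed FPKM of tested genes in the root control libraries and 6.16% and 5.59% in root salt. In the 4 leaf libraries the share was 2.99% to 3.09%. The root salt libraries stood above all others and the leaf libraries lay close together, as the choice of the class requires.

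LOC_Os12g36880 (chromosome 12, 22599952 to 22601258) led this class. Its root level was 3.32 and 2.26 FPKM in control and 279 and 401 FPKM with salt. In leaf it was 45.8 and 50.0 FPKM in control and 44.6 and 42.8 FPKM with salt. The root groups lay far apart, and the leaf groups lay close together without overlapping. The ratio of root to leaf means passed from 0.0583 to 7.79. The log2 changes were 6.48 in root and -0.13 in leaf (95% interval -0.59 to 0.34), a difference of 6.61 ± 0.276 (SE, n = 2 per group, limma adjusted p = 0.000111). It stayed in the class under all 18 alternative settings of the fit and the libraries.

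LOC_Os08g04540 (chromosome 8, 2256007 to 2257920) was low everywhere except in salt-treated root. It had 0.336 and 0.353 FPKM in root control, on 8 implied fragments each, and 74.5 and 42.5 FPKM in root salt. Leaf controls had 0.573 and 0.700 FPKM and leaf salt 0.630 and 1.42 FPKM. The root groups were separate and the leaf groups overlapped. The difference was 5.13 ± 0.410 (SE, limma adjusted p = 0.000581), and it was called under all 18 alternatives. Its leaf interval reached 0.97, close to the bound, and it left the class in 9 of 18.

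Genes that fell in root with leaf within bounds had medians of -1.36 in root and -0.07 in leaf, with at least a 4-fold fall for 57 of the 396. Root exceeded leaf in controls for 302 and leaf exceeded root for 51, against 9299 and 6722 of the 23776 tested genes. A fall of at least 2-fold on log2(FPKM + 1) needs a raised control level in the tissue that falls, so such a split follows in part from the choice of the class. Their share of summed FPKM went from 3.35% and 3.42% in root control to 1.19% and 1.33% in root salt, and in leaf it was 1.74% and 1.78% in control and 1.55% and 1.52% with salt.

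LOC_Os05g30500 (chromosome 5, 17670774 to 17671582) had 18.3 and 18.2 FPKM in root control and 2.31 and 3.27 FPKM in root salt. Leaf values were 1.49 and 1.29 FPKM in control and 2.50 and 1.64 FPKM with salt, on 10 to 22 implied fragments. The groups did not overlap in either tissue, and the root groups lay much further apart than the leaf groups. Salt brought root down to near the leaf level, and the root minus leaf difference passed from 3.01 in controls (limma adjusted p = 1.03e-05) to 0.31 under salt, which was not called (adjusted p = 0.175). The salt responses differed by -2.71 ± 0.261 (SE, limma adjusted p = 0.000976).

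LOC_Os10g21190 (chromosome 10, 10788995 to 10791104) showed the reverse arrangement, with the higher level in leaf. Leaf had 46.7 and 33.3 FPKM in control and 49.9 and 39.5 FPKM with salt, overlapping groups. Root fell from 9.55 and 5.17 FPKM to 0.249 and 0.597 FPKM, the last 2 values resting on 2 and 5 implied fragments. The difference was -2.68 ± 0.413 (SE, limma adjusted p = 0.0043). Both genes left the class at a pseudocount of 0.1, without leaf control replicate 1 and without leaf salt replicate 2, and kept a called difference in each case.

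Genes that rose in leaf with root within bounds had medians of 1.37 in leaf and 0.11 in root, and 64 of the 475 rose at least 4-fold. Of the summed FPKM they held 1.24% and 1.20% in leaf control and 3.56% and 3.62% in leaf salt. Root libraries held 3.08% and 2.92% in control and 3.41% and 3.11% with salt. The leaf share thus passed from below that of every root library to above it. In controls 195 of the 475 were more abundant in root and 197 in leaf, against 9299 and 6722 of the 23776 tested genes. Under salt the numbers were 75 and 332, against 11346 and 5819 of all tested genes. This shift toward leaf follows in part from the choice of the class.

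LOC_Os07g05365 (chromosome 7, 2456968 to 2458151) was a leaf transcript that became more abundant still. Leaf went from 33.3 and 32.1 FPKM to 239 and 326 FPKM. Root had 1.11 and 0.788 FPKM in control and 1.55 and 0.559 FPKM with salt, on 3 to 8 implied fragments, with overlapping groups. The log2 changes were 3.05 in leaf and 0.04 in root, and the difference was -3.02 ± 0.354 (SE, limma adjusted p = 0.00172). The gene left the class at a pseudocount of 0.1 and stayed in it under the other 17 alternatives.

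LOC_Os01g37000 (chromosome 1, 20640981 to 20643886) was an abundant root transcript that rose in salt-treated leaf from a low level. Root had 328 and 334 FPKM in control and 349 and 276 FPKM with salt, which overlap. Leaf rose from 0.580 and 0.633 FPKM, on 11 and 12 implied fragments, to 8.42 and 13.7 FPKM. Leaf thus remained far below root, and the ratio of root to leaf means passed from 546 to 28.3. The difference was -2.96 ± 0.295 (SE, limma adjusted p = 0.00105), and the gene stayed in the class under all 18 alternatives.

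**Figure D3:**
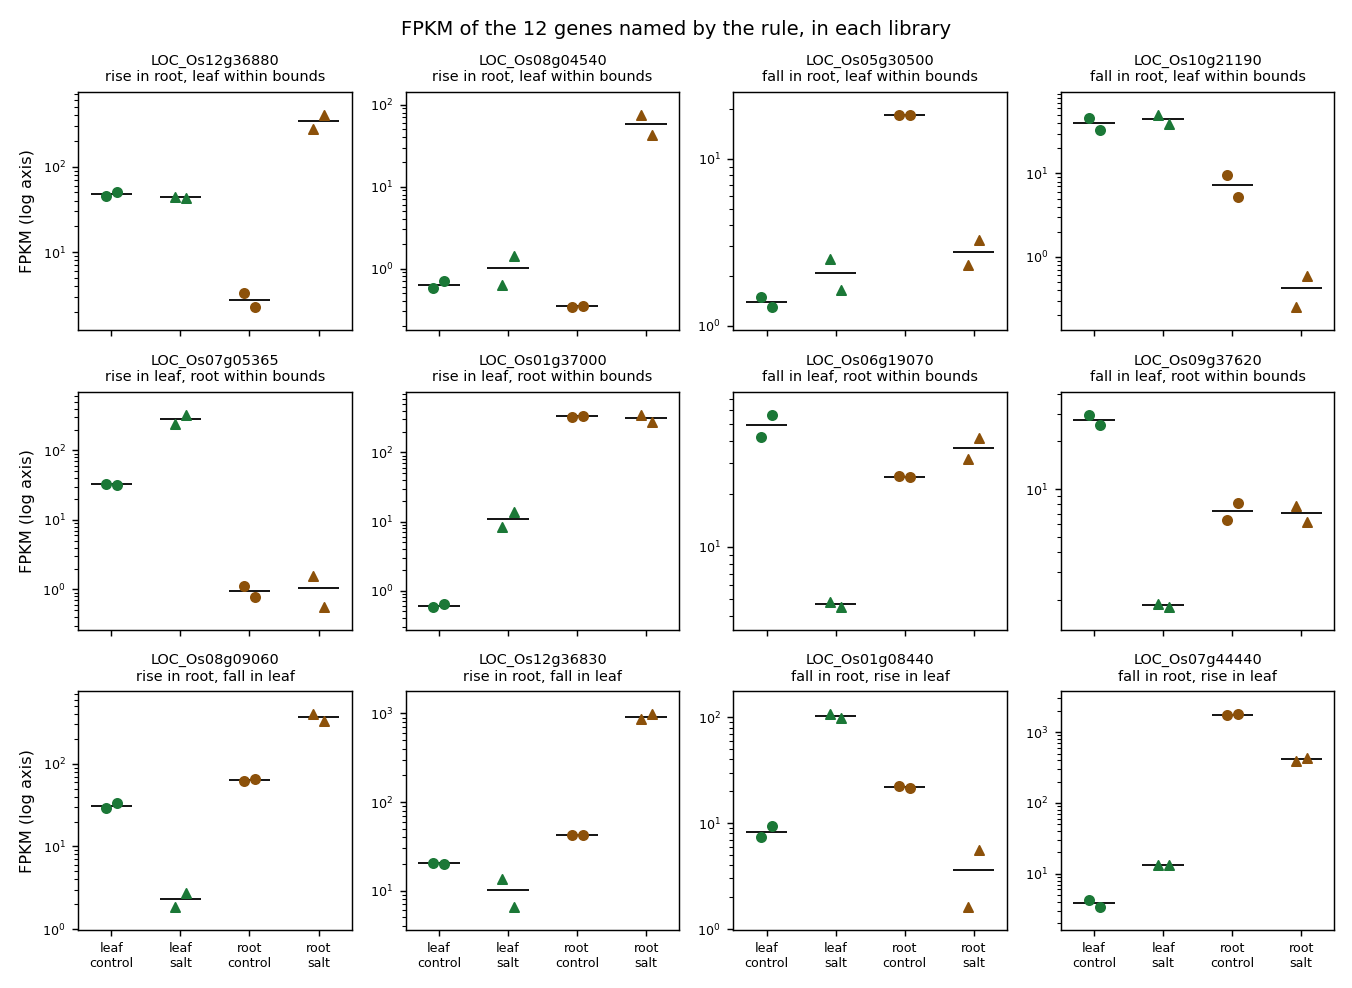
FPKM (log axis) of the 12 named genes in each of the 8 libraries; circles are controls, triangles salt, green leaf, brown root, and lines group means (n = 2). In LOC_Os12g36880 root passes from below leaf to above it, and in LOC_Os01g08440 root passes from above leaf to below it.

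Genes that fell in leaf with root within bounds had medians of -1.33 in leaf and -0.03 in root, and 100 of the 641 fell at least 4-fold. In controls 453 of them were higher in leaf and 108 higher in root, against 6722 and 9299 of all tested genes, a split that again follows in part from the choice. Under salt 247 were higher in leaf and 252 in root, against 5819 and 11346 of all tested genes. Of the summed FPKM they held 3.35% and 3.33% in leaf control, 1.16% and 1.11% in leaf salt, and 2.19% to 2.22% in the 4 root libraries.

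LOC_Os06g19070 (chromosome 6, 10843920 to 10846020) had 42.3 and 56.7 FPKM in leaf control and 4.85 and 4.52 FPKM in leaf salt. Root had 25.3 and 25.0 FPKM in control and 31.7 and 41.8 FPKM with salt, and this rise of 0.52 was itself called (limma adjusted p = 0.0478). The leaf groups and the root groups were each separate. The difference was 3.65 ± 0.243 (SE, limma adjusted p = 0.000381). The gene left the class without root control replicate 1, root control replicate 2 or root salt replicate 1, with the difference still called.

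LOC_Os09g37620 (chromosome 9, 21686048 to 21688767) fell in leaf from 29.5 and 25.3 FPKM to 1.89 and 1.80 FPKM. Root had 6.38 and 8.22 FPKM in control and 7.84 and 6.22 FPKM with salt, overlapping groups with a log2 change of -0.05 (95% interval -0.43 to 0.33). The difference was 3.27 ± 0.226 (SE, limma adjusted p = 0.000389). For both genes the leaf level was above root in controls and below it under salt.

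Genes that rose at least 2-fold in root and fell at least 2-fold in leaf numbered 99 (0.416% of tested genes). Their median changes were 1.62 in root and -1.38 in leaf. Together they held 0.865% and 0.893% of summed FPKM in leaf control, 0.145% and 0.146% in leaf salt, 0.780% and 0.535% in root control and 1.73% and 2.32% in root salt. The groups were separate in both tissues, as the choice of the class requires. In controls 64 of the 99 were higher in leaf and 17 in root, against 6722 and 9299 of the 23776 tested genes. Under salt 11 were higher in leaf and 80 in root, against 5819 and 11346. This shift toward root follows in part from the choice of the class. Of the 99, 44 kept their class whichever library was left out. The count depended on the pseudocount, with 232 genes at 0.1 and 27 at 5, and after quantile normalization it was 66.

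LOC_Os08g09060 (chromosome 8, 5260152 to 5261299) had 29.2 and 33.4 FPKM in leaf control and 1.87 and 2.74 FPKM in leaf salt. In root it had 62.8 and 65.8 FPKM in control and 395 and 332 FPKM with salt. The groups were separate in both tissues, and the ratio of root to leaf means widened from 2.06 to 158. The log2 changes were -3.30 and 2.48, a difference of 5.77 ± 0.214 (SE, limma adjusted p = 0.000111), and the gene stayed in the class under all 18 alternatives.

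LOC_Os12g36830 (chromosome 12, 22580778 to 22581972) had a much larger rise than fall. Root went from 42.2 and 42.1 FPKM to 868 and 974 FPKM. Leaf had 20.6 and 20.2 FPKM in control and 13.6 and 6.61 FPKM with salt. The leaf groups were separate, with salt libraries that differed from each other more than the nearer one did from control. The log2 changes were 4.42 and -1.02 (limma adjusted p = 0.0268 for leaf), and the difference was 5.43 ± 0.381 (SE, limma adjusted p = 0.000417). It stayed in the class in 12 of 18 alternatives, while the difference was called in all of them. It left the class at a pseudocount of 5, with no filter on low values, after quantile normalization, on leaving out either leaf control library, and on leaving out leaf salt replicate 2.

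Genes that fell at least 2-fold in root and rose at least 2-fold in leaf numbered 22 (0.0925%). Of these, 10 were on chromosome 1, which held 3355 of the 23776 tested genes. The median changes were -1.49 in root and 1.46 in leaf. The count was 57 at a pseudocount of 0.1 and 12 at 5, it was 34 after quantile normalization, and it was 35 without root control replicate 2. Their share of summed FPKM in leaf was 0.175% and 0.205% in control and 0.719% and 0.684% with salt, and in root 0.513% and 0.534% in control and 0.158% and 0.173% with salt.

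LOC_Os01g08440 (chromosome 1, 4152864 to 4154680) had 7.33 and 9.33 FPKM in leaf control and 106 and 97.7 FPKM in leaf salt. Root went from 22.3 and 21.6 FPKM to 1.63 and 5.63 FPKM. All groups were separate, and the salt-treated root libraries differed from each other by more than the controls did. The difference was -5.93 ± 0.541 (SE, limma adjusted p = 0.000846). Root was 1.31 above leaf on the log2 scale in controls and the contrast was -4.62 under salt.

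LOC_Os07g44440 (chromosome 7, 26551781 to 26552660) was among the more abundant root transcripts of the named genes. Root had 1723 and 1780 FPKM in control and 395 and 429 FPKM with salt. Leaf had 4.27 and 3.42 FPKM in control and 13.5 and 13.1 FPKM with salt, on 19 to 85 implied fragments. Groups did not overlap in either tissue, and root stayed far above leaf throughout. The difference was -3.65 ± 0.148 (SE, limma adjusted p = 0.000111), and it and LOC_Os01g08440 stayed in the class under all 18 alternatives.

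**Figure D4:**
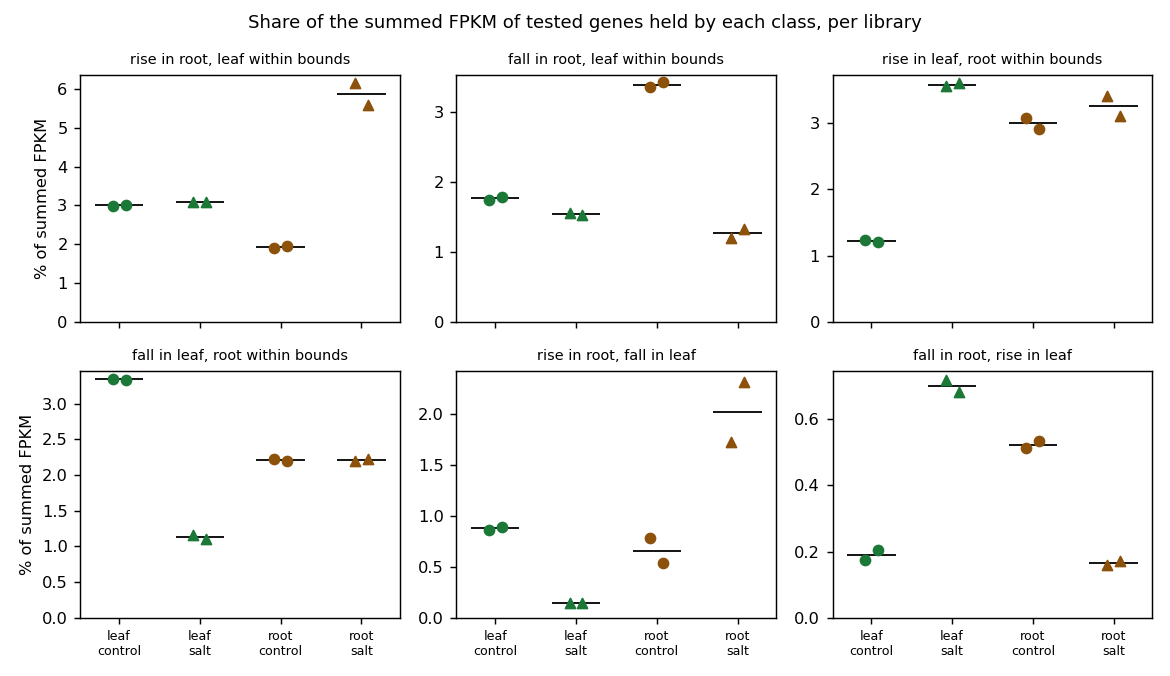
Share of the summed FPKM of tested genes held by each of the 6 classes (y axis, %), in each library; circles are controls, triangles salt, green leaf, brown root, and lines group means (n = 2). Each single-tissue class moves most in 1 tissue, as it was chosen to. Smaller shifts are seen in the other tissue, as in leaf for genes that fell in root and in root for genes that rose in leaf. The genes that rose in root and fell in leaf go from 0.145% in leaf salt to 2.32% in root salt.

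The difference of salt response is the same quantity as the change that salt makes in the root minus leaf difference, so each gene can also be read as an organ contrast that widens, narrows or turns. Root and leaf differed for 67.4% of tested genes without salt and for 72.2% with it. Among the 7805 genes, the organ difference widened for 2159 and narrowed for 1673 with the same sign, it was called under salt alone for 1980 and without salt alone for 1279, and it was called in neither state for 25. It turned in sign, with calls in both states, for 689 genes. Of these, 514 were higher in leaf without salt and higher in root with it, and 175 the other way round. These counts and the percentages above are for FPKM as deposited, and their dependence on scaling was not tested. The median root minus leaf difference of tested genes under salt was 0.346 on that scale. It was 0.17 after 75th percentile scaling and 0.102 after quantile normalization. Without salt, the same medians were 0.176, 0.172 and 0.183.

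Turns were most frequent in the opposite classes, where the required change of at least 2-fold in each direction favours them. Among the 99 genes that rose in root and fell in leaf, 45 turned from leaf to root, and among the 22 that fell in root and rose in leaf, 8 turned from root to leaf. In the single-tissue classes 139 of 1135 (root rise), 28 of 396 (root fall), 52 of 475 (leaf rise) and 65 of 641 (leaf fall) turned. Of all 7805 genes with a called difference, 689 turned. Falls narrowed the contrast in size, with a median absolute organ difference of 2.06 without salt and 1.24 with it for genes that fell in root, and 1.66 and 1.14 for genes that fell in leaf. Rises widened it, from 0.67 to 1.62 for root and from 1.19 to 1.56 for leaf. Over all tested genes the medians were 0.72 and 0.84. These directions follow in part from the way the classes were defined and were not tested.

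A small set of genes was close to present or absent by group. At 5 FPKM or more in both libraries of a single group and under 1 FPKM in the other 6 libraries, 19 genes marked root salt, 14 leaf control, 6 leaf salt and 4 root control. Such a pattern is itself a difference of salt response, so that their calls carry no further information. The 19 root salt genes had means of 5.50 to 89.2 FPKM there, with a median of 7.69. Of the 4 root control genes, 3 have loci under 800 bases and are listed at 0 in the other 6 libraries. The fourth, LOC_Os05g01370 (chromosome 5, 227008 to 228036), named here after its values were seen, had 7.26 and 8.53 FPKM in root control, 0.383 and 0.459 FPKM in root salt and 0.0805 to 0.185 FPKM in 3 leaf libraries, and was listed at 0 in leaf salt replicate 2.

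Some members of a class lay side by side. Counted over consecutive tested genes, 92 stretches of 2 or more genes that rose in root held 196 genes, 17.3% of that class. For genes that fell in root, rose in leaf and fell in leaf, 14.1%, 8.84% and 12.3% were in such stretches, and 12.1% of the genes that rose in root and fell in leaf were. No chance expectation was computed, and whether neighbours are duplicates was not looked at. Neighbouring copies can share reads, so that their separate values are uncertain.

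The longest stretch with opposite directions held 4 genes within 8.43 kb of chromosome 7 (2176569 to 2184998). In leaf they had 13.8 to 37.2 FPKM in control and 2.81 to 9.41 FPKM with salt, and their falls were nearly equal, from -1.97 to -1.84. In root they differed. The first and the third rose by 1.31 and 1.47 from control levels of 19.9 to 39.1 FPKM, and the second and the fourth rose by 3.17 and 3.69 from 0.588 to 6.42 FPKM. Root salt replicate 1 was well above replicate 2 in each of the 4 genes, for example 110 against 56.8 FPKM in the first. The differences of response were 3.21, 5.0, 3.44 and 5.60 (limma adjusted p = 0.000661 to 0.00311).

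The 2 named genes of chromosome 12 bound a stretch of 20.5 kb (22580778 to 22601258) with 6 tested genes, 5 of which had a more positive salt change in root. Of these 5, 4 rose in root, by 3.38 to 6.48. The other 2 tested genes, the second and the fifth in order, had root changes of -0.04 and 0.25 that were not called. In leaf 3 of the 6 genes fell, with changes of -1.02, -0.74 and -0.57, and the rest were not called. Besides the outer genes, the third reached 660 and 785 FPKM in salt-treated root from 56.1 and 44.6 FPKM, and the fourth 8.16 and 12.7 FPKM from 0 and 0.151 FPKM. The 4 rising genes thus differ widely in level. The stretch was drawn after the outer 2 genes had been named for large positive differences, so their part in these counts was fixed by the choice. Of all tested genes, 23.1% had a called difference that was more positive in root.

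**Figure D5:**
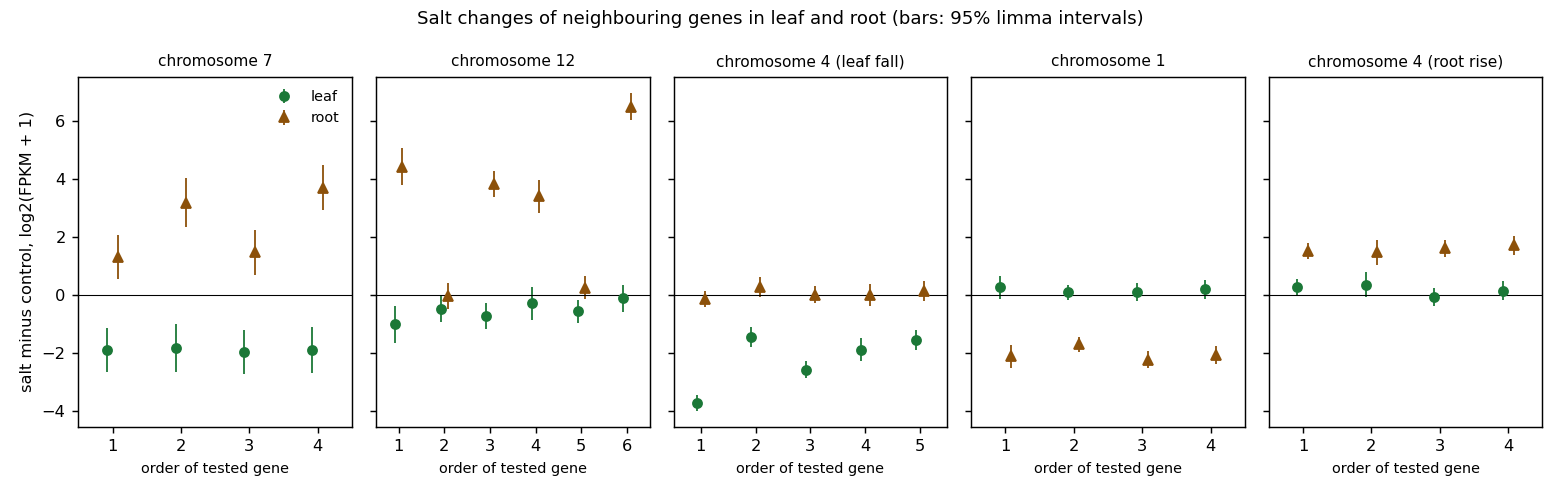
Salt change on log2(FPKM + 1), salt minus control, of consecutive tested genes in 5 stretches, with genes in chromosomal order on the x axis; circles are leaf, triangles root, and bars 95% limma intervals. On chromosome 7 all 4 genes rise in root and fall in leaf, and on chromosome 12 the second and the fifth of 6 genes have no called root change while the other 4 rise.

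The longest stretch of a single class held 5 genes that fell in leaf within 206 kb of chromosome 4 (17560646 to 17766782). The first had 245 and 253 FPKM in leaf control, 19.7 and 16.2 FPKM in leaf salt and 0.400 to 0.563 FPKM in root. The second was present in root, with 4.73 and 3.82 FPKM in control and 5.71 and 4.90 FPKM with salt, while in leaf it went from 2.75 and 2.51 FPKM to 0.382 and 0.275 FPKM. The other 3 had at most 0.203 FPKM in any root library, so that their root change has little room. Leaf changes were -3.73 to -1.45 over the 5 genes.

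On chromosome 1, 4 genes within 22.7 kb (13837906 to 13860625) fell in root by 1.71 to 2.24. Their root controls held 24.8 to 108 FPKM and root salt 5.48 to 32.0 FPKM, and no leaf library exceeded 0.398 FPKM. Control and salt libraries did not overlap in root for any of the 4. With leaf levels near 0, a fall in leaf could not have been measured.

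On chromosome 4, 4 genes within 64.7 kb (20280360 to 20345067) rose in root by 1.47 to 1.70 with leaf changes of -0.08 to 0.34. Here the leaf levels varied. The fourth gene had 4.03 and 4.93 FPKM in leaf control and 5.08 and 4.91 FPKM in leaf salt, above the 2.59 and 3.0 FPKM of root control and below the 12.2 and 10.5 FPKM of root salt. The third had at most 0.0564 FPKM in leaf. Rises of similar size in root were thus seen beside leaf levels that were above root control, below it or close to 0.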

How the data were processed

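The deposited values are FPKM per gene and library with confidence bounds, in the Cufflinks gene tracking format per the file headers. TopHat2 2.0.13, Cufflinks 2.2.1 and Cuffdiff are named in the submitters' processing notes. The genome build, the annotation and the strand setting are not stated in those sources. Overlapping genes and near-identical copies are therefore uncertain. Of 55806 entries on 12 chromosomes, 9 belong to 4 repeated identifiers and were left out, as were 185 entries on unplaced sequence present in 3 libraries. Loci are printed 1-based.

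Genes at 1 FPKM or more in at least 2 of 8 libraries were tested (23776). Values were transformed as log2(FPKM + 1), so fold changes of low genes are understated, and a model with 4 group means was fitted across all genes with limma 3.58.1 in R 4.3.3, with a variance prior that follows the mean level. All groups share the estimate of spread. The fit was also run on simulated data with independent normal noise at the fitted spread of each gene. Such data cannot test the scaling of the libraries or the spread between plants, so no conclusion is drawn from them. Implied fragments are the square of 2 times the FPKM divided by the distance to its upper bound and cover counting error only.

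The 2 genes named per class have the largest difference of response among those with separate replicates in each responding tissue, at least 5 FPKM in the higher group, no responding library at 0, a locus of at least 800 bases and, for a single-tissue class, at least 1 FPKM in a group of the other tissue. Gene lists by symbol, fixed with the design, were not run because no identifier could be matched. Classes and lists were chosen with earlier results of these data known. Alternatives were the pseudocount, the filter on low values, the scaling, the variance prior, the replicate block, locus length, leaf transcripts at trace level in root, the bound on the other tissue and each library left out.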

Additional observations from a re-analysis of the deposited data

Results flagged for a closer look

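Each gene counted or named here had a called limma interaction of tissue and treatment. The salt change was more positive in root for 5496 genes (23.1% of tested genes) and more positive in leaf for 2309 (9.71%). The split between these counts was not itself tested. It depended on scaling, with 3619 and 3852 genes after quantile normalization. The log2 difference, root minus leaf, was 6.61 for LOC_Os12g36880 and 5.13 for LOC_Os08g04540, which rose in root. It was -2.71 for LOC_Os05g30500 and -2.68 for LOC_Os10g21190, which fell in root. It was -3.02 for LOC_Os07g05365 and -2.96 for LOC_Os01g37000, which rose in leaf, and 3.65 for LOC_Os06g19070 and 3.27 for LOC_Os09g37620, which fell in leaf. Among genes with opposite directions it was 5.77 for LOC_Os08g09060, 5.43 for LOC_Os12g36830, -5.93 for LOC_Os01g08440 and -3.65 for LOC_Os07g44440.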

How the results depend on the processing

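The difference of response of the 12 named genes kept its direction and its call in all 216 combinations of gene and alternative. These genes were chosen for the largest called differences with separate replicates, so this outcome was favoured by the choice. It does not carry over to other members of the classes. Of 152 counts of genes under alternatives, 131 were within 1.5 times the reported count. Below, a change in 1 tissue alone means that the other tissue stayed within the bounds. On the deposited scale, 520 of the 2647 such genes were also called in the other tissue. With a pseudocount of 0.1, genes that fell in root alone numbered 263, and the opposite classes held 232 (root up, leaf down) and 57 (root down, leaf up). With a pseudocount of 5, genes that rose in root alone, fell in root alone and fell in leaf alone numbered 650, 247 and 346, and the opposite classes 27 and 12. After 75th percentile scaling 598 genes fell in root alone. After quantile normalization 3619 genes were more positive in root and 3852 in leaf, 715 rose and 687 fell in root alone, and 34 fell in root and rose in leaf. With the other tissue held within 1.5-fold, the single-tissue classes held 511, 191, 210 and 324 genes. The cause of these shifts was not tested, except that a larger pseudocount shrinks changes of low genes by construction. Leaving out each library in turn gave 3779 to 4733 genes more positive in root, 1446 to 2137 more positive in leaf, 825 to 1252 and 278 to 528 that rose and fell in root alone, 346 to 428 and 499 to 620 that rose and fell in leaf alone, and 78 to 109 and 18 to 35 in the opposite classes. Without root control replicate 1, which held more leaf transcript, these were 4653, 1795, 1165, 341, 396, 569, 109 and 28. Replicate numbers are shared between groups but are not said to pair libraries. Differences between replicates correlated across genes at -0.021 to 0.213 between groups, and with the replicate block 5264 genes were more positive in root and 2220 in leaf, with 1127, 397, 468, 641, 100 and 22 in the 6 classes. With 2 libraries per group, values under about 1 FPKM rest on few fragments, and changes there are poorly measured.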

Other observations

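Pooled over the 6 classes, members made up 10.5% of tested genes on chromosome 3 and up to 12.5% on chromosomes 1 and 10. Of the 22 genes that fell in root and rose in leaf, 10 were on chromosome 1 and 0 on chromosomes 3, 8, 9 and 12. Genes with opposite directions had short loci, with medians of 1659 bases (root up, leaf down) and 1410.5 bases (root down, leaf up), against 3157 bases over all tested genes, and the single-tissue classes had medians of 2300.5 to 2867 bases. Loci under 800 bases made up 14.4% of the genes that fell in root with leaf within bounds. They made up 4.85% of those that rose in root with leaf within bounds, against 7.38% of tested genes. The part of locus length in these classes was not tested.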
